A study of Mus musculus with 9 samples.

Results

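The 10 genes described here are Slc3a2 and 9 SLC7 genes, Slc7a1, Slc7a2, Slc7a3, Slc7a5, Slc7a6, Slc7a7, Slc7a8, Slc7a10 and Slc7a11. They were taken by symbol from a table of 57180 genes, each symbol matched 1 row, and all 10 passed the filter on low values (a mean of at least 10 normalized counts). The table holds RNA-seq of whole hippocampus of C57BL6 mice aged 11 days: 4 animals with Slc38a3, the gene of the glutamine transporter SNAT3, knocked out selectively in endothelial cells (cKO; 3 males, 1 female) and 5 wild-type animals (WT; 1 male, 4 females). For the Cre line and the deleted exons, nothing is given in the sources used here. Reads counted in genes, recovered from the deposited values, came to 30803135 to 34034530 per library.

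SLC7 proteins move amino acids across cell membranes. The cationic transporters, encoded by Slc7a1, Slc7a2 and Slc7a3, carry arginine, lysine and ornithine on their own. The other 6 members here are light chains that reach the cell surface bound to a heavy chain, 4F2hc (CD98), encoded by Slc3a2, and work as exchangers: 1 amino acid enters as another, often glutamine, leaves. In brain they supply large neutral amino acids across the vessel wall, move D-serine and glycine, and bring in cystine for glutathione.

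The labels were checked on Slc38a3, which was at 307.7 to 405.4 normalized counts in cKO and 1804 to 3514 in WT, with no overlap (exact permutation test over 126 splits, two-sided p = 0.00794, the lowest that 4 against 5 animals can give). Normalized counts are read counts over the size factor of each library, and the test was limma-trend on log2(normalized count + 1) with sex as a term, adjusted by Benjamini-Hochberg over 17036 genes. Of 12 lists of cell type markers, 3 had summed levels that did not overlap between the groups both with and without their most abundant gene, all lower in cKO. These 3 were the microglia and macrophage list (11 genes, 9735 to 10899 in cKO and 10979 to 11473 in WT), the oligodendrocyte precursor list (6 genes, 17944 to 18721 and 19567 to 20851) and the excitatory neuron list (9 genes, 203683 to 227239 and 227242 to 242647). The mural list (10 genes, 13322 to 14415 and 14553 to 16298) did not overlap either, but Rgs5 made up 52.1% of the sum and the other 9 genes overlapped (6503 to 7140 and 6469 to 7856). Endothelial markers (12 genes, 9781 to 10839 and 10818 to 12125) overlapped narrowly, and among them the VEGF receptor gene Flt1 fell (1155 to 1355 in cKO, 1495 to 1675 in WT, limma adjusted p = 0.0417) and 11 did not pass. Astrocyte markers (11 genes, 156728 to 166173 and 155809 to 171503) and meningeal and fibroblast markers (12 genes, 12820 to 14501 and 10916 to 14778) overlapped. Choroid plexus markers ran from 690.8 to 33297 in cKO and from 708.0 to 43937 in WT. None of the markers was at 0 in every library, and the part of these cell types in the members' levels was not tested beyond the covariates named with them.

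Of the 10 members, Slc7a2 fell, none rose and 9 did not pass, where 0.346% of all genes tested passed (0.223% lower, 0.123% higher). With edgeR on recovered whole reads 1 member passed (0.335% of all genes tested), with DESeq2 on those reads 2 (1.17%), and with limma without the sex term 3 (1.27%). The DESeq2 share is over all 17036 genes, though its default filter can leave low genes without an adjusted p. Slc7a7 has no DESeq2 value here. In 3 of the 10 members no cKO library lay within the range of the WT libraries, with Slc7a2 and Slc7a10 lower and Slc7a3 higher in cKO. Over all genes tested 6.29% did not overlap, 2.58% higher and 3.72% lower. An unadjusted p under 0.05 was seen in 6 members, 2 with a log2 difference above 0 and 4 below, against 11.3% of all genes tested. The median log2 difference was 0.05 over the members and -0.0034 over all genes tested, and the median size without sign was 0.14 and 0.08. In RNA of whole tissue, fewer cells of a type and less RNA per cell cannot be told apart.

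**Figure D1:**
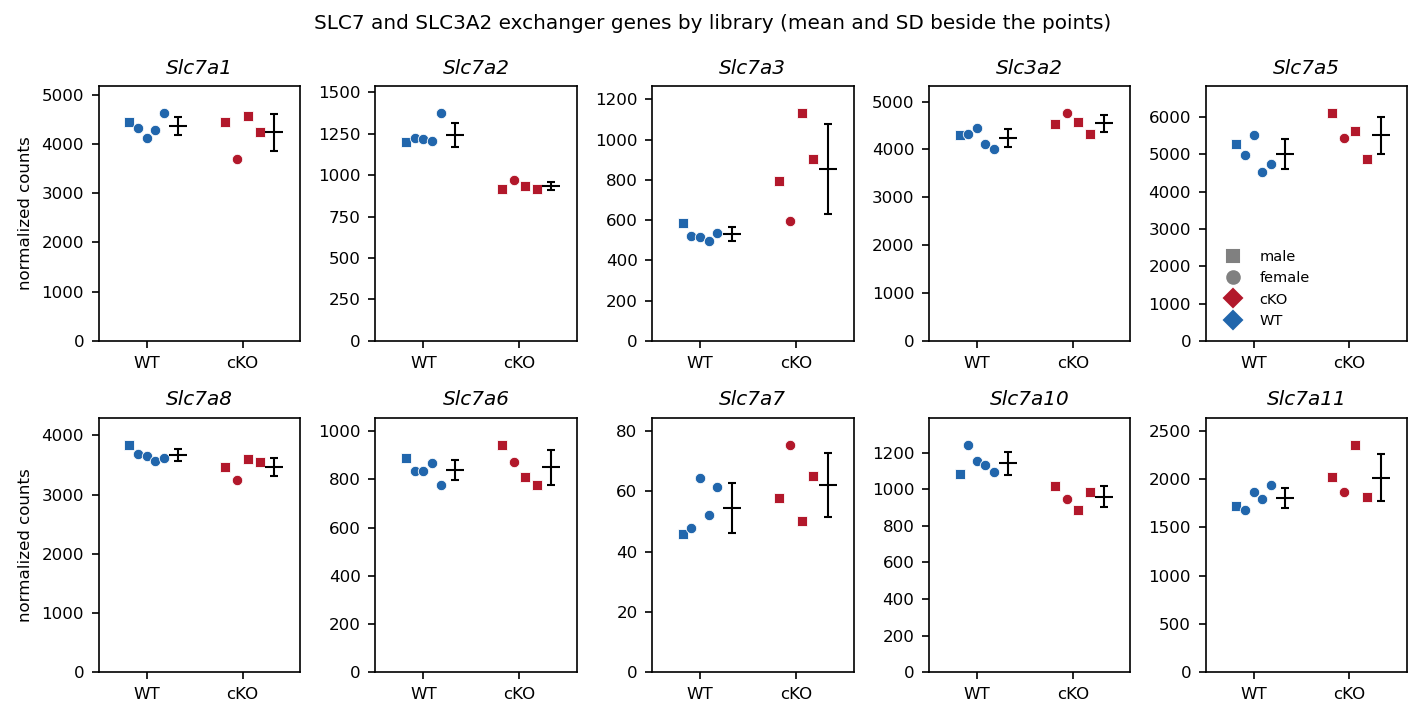
Normalized counts of the 10 members in each library, with 1 panel per gene, squares for males, circles for females and the group mean with its SD beside the points. Slc7a2 (918.8, 970.4, 932.7 and 917.5 in cKO), Slc7a3 and Slc7a10 are the 3 panels in which the groups do not overlap.

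The cationic transporters differed from each other: Slc7a2 fell, Slc7a3 was higher in every cKO library without passing, and Slc7a1 overlapped between the groups. Slc7a2 (ENSMUSG00000031596, chromosome 8, 41315432 to 41375345 in GRCm39) encodes CAT-2, which is made in forms that differ by an alternative exon and in their affinity for arginine. The pair of exons is shown because the deposited values sum both forms. Of 4 full-length coding transcripts in GENCODE M21 (GRCm38, plus strand), 2 hold exon a (chr8:40908056-40908195, 140 bases) and 2 hold exon b (chr8:40908398-40908534, 137 bases), 84 aligned bases are identical, and capitals mark the bases that are not.
Slc7a2 exon a: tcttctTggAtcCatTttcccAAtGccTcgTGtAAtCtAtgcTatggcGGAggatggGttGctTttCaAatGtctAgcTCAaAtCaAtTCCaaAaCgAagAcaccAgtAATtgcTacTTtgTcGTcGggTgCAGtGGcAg
Slc7a2 exon b: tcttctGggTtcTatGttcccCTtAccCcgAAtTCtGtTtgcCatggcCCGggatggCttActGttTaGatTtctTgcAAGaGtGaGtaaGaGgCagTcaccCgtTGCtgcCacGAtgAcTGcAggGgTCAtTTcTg
Which form the reads came from cannot be read from values per gene.

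Slc7a2 was at 918.8, 970.4, 932.7 and 917.5 normalized counts in cKO replicates 1 to 4, and at 1198, 1225, 1219, 1205 and 1373 in WT replicates 1 to 5. Every cKO library lay below every WT library, and the cKO libraries were the closer together, with WT replicate 5 standing above the other 4 WT libraries. The means were 934.8 ± 24.7 in cKO (n = 4) and 1244 ± 73.1 in WT (n = 5), each with its SD. With sex as a term, the log2 difference was -0.37 ± 0.0569 (SE, 95% interval -0.49 to -0.25), a 1.29-fold fall (limma adjusted p = 0.0125). Without that term it was -0.41, which is also the log2 ratio of the means. The difference was alike in size within each sex, at -0.38 in males (3 cKO, 1 WT) and -0.37 in females (1 cKO, 4 WT). Each of these values rests on a single animal in 1 group. Counts of 924 to 1277 reads per library were behind these values, and counting error alone gives a coefficient of variation of 3.01%, against 2.64% between the cKO libraries.

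The call for Slc7a2 was lost without WT replicate 1, the only WT male (log2 difference -0.37). The same held without the only cKO female, replicate 2, where the log2 difference was -0.38. Only females or only males then hold both genotypes, so these 2 values repeat those within each sex. The call was also lost with the mean log2 level of the meningeal markers (-0.36, limma adjusted p = 0.108) or of the astrocyte markers (-0.37, limma adjusted p = 0.516) as a covariate. The SE was then 0.0685 and 0.0991, against 0.0569, and 15 and 1 of all genes tested passed, against 59 without a covariate. Without both WT replicates 2 and 5, which had the lowest Slc38a3 of the WT libraries, the call for Slc7a2 was lost as well (-0.35, limma adjusted p = 0.0653). The genes whose levels ran most like Slc7a2 over the 9 libraries, among 13903 with a mean of at least 50, were 2900052N01Rik, the astrocyte water channel gene Aqp4 and the glial potassium channel gene Kcnj10 (Pearson r = 0.980, 0.980 and 0.978, Spearman rho = 0.917, 0.917 and 0.867). Average levels were 8347 in cKO and 11001 in WT for Aqp4, and 3787 and 5605 for Kcnj10. Among the 11 astrocyte markers Aqp4 fell (limma adjusted p = 0.00206), Gfap and S100b rose (0.0420 and 0.0141) and 8 did not pass. Such a likeness includes the difference between the groups, which all 9 libraries share.

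Slc7a3 (ENSMUSG00000031297, chromosome X, 100122815 to 100129626), which encodes CAT-3, a form known mainly from neurons, had the largest log2 difference of the 10 members but did not pass. It was at 792.5, 593.4, 1130 and 905.2 normalized counts in cKO replicates 1 to 4, and at 583.4, 521.4, 515.4, 496.0 and 536.6 in WT replicates 1 to 5. Every cKO library lay above every WT library, though the lowest cKO library, the female, lay just above the highest WT library, the male. Means were 855.3 ± 224.0 for the 4 cKO libraries and 530.5 ± 32.9 for the 5 WT libraries (SD). The cKO libraries were the more widely spread, with coefficients of variation of 26.2% and 6.20%. The log2 difference with sex as a term was 0.43 ± 0.118 (SE, 95% interval 0.17 to 0.68, limma adjusted p = 0.185).

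The size of the Slc7a3 difference depended on how sex was treated. It was 0.68 in males (3 cKO, 1 WT) and 0.20 in females (1 cKO, 4 WT), and 0.65 without the sex term, where it passed (limma adjusted p = 0.0283). DESeq2 on the recovered reads also passed it with sex as a term (log2 difference 0.44, adjusted p = 0.0280), and edgeR did not (0.45, adjusted p = 0.192). The limma fits without cKO replicate 2 (0.68) and without WT replicate 1 (0.20) repeat the male and female values. Only males or only females then hold both genotypes. Between the sexes Slc7a3 was lower in females by a log2 difference of -0.40 ± 0.118 (SE), which did not pass (limma adjusted p = 0.644). The genes that ran most like it were Ngrn, Zfp41 and Abtb1 (Pearson r = 0.967, 0.960 and 0.947, Spearman rho = 0.883, 0.933 and 0.900, over 9 libraries).

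Slc7a1 (ENSMUSG00000041313, chromosome 5, 148264219 to 148336714) encodes CAT-1, the form found in most tissues. It was at 4436, 3694, 4559 and 4243 normalized counts in cKO replicates 1 to 4, and at 4451, 4323, 4128, 4289 and 4622 in WT replicates 1 to 5. The groups overlapped, and cKO replicate 2, the female, was the lowest of the 9 libraries. Its log2 difference was -0.13 ± 0.0552 (SE, 95% interval -0.24 to -0.0069, limma adjusted p = 0.415), at -0.01 in males and -0.23 in females. It was -0.05 without the sex term and -0.02 with the astrocyte markers as a covariate.

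Since the 3 cationic genes carry the same substrates, their levels were also set side by side per length, as normalized counts per kilobase of exon (exon lengths from GENCODE M21). Their sum averaged 695.5 in cKO (583.4 to 796.1, n = 4) and 654.7 in WT (627.6 to 693.0, n = 5), and the ranges overlapped. Per kilobase of exon, the make-up of the sum did not overlap for any of the 3 genes. Slc7a1 made up 49.7 to 55.4% of it in cKO and 57.0 to 58.6% in WT. Slc7a2 made up 12.8 to 18.2% in cKO and 19.5 to 21.7% in WT, and Slc7a3 26.9 to 37.5% and 20.5 to 23.0%. These shares follow from the levels given above and were not tested. They rest on the exon lengths used (11530, 9135 and 3784 bases for Slc7a1, Slc7a2 and Slc7a3). With the coding lengths (1866, 2022 and 1854 bases) the Slc7a1 shares of the groups overlap.

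**Figure D2:**
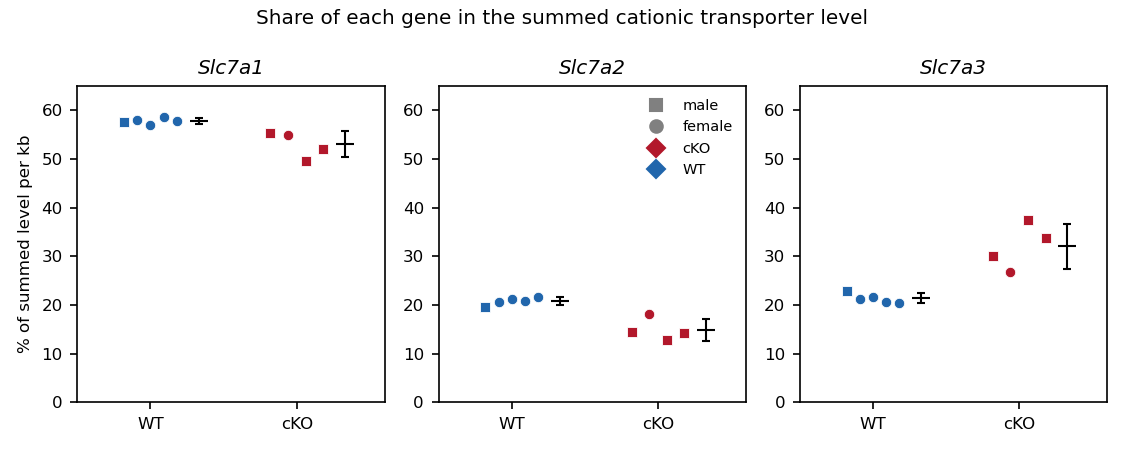
Share (%) of Slc7a1, Slc7a2 and Slc7a3 in their summed level per kilobase of exon, by library, with the group mean and SD beside the points. The share of Slc7a3 runs from 26.9 to 37.5% in the 4 cKO libraries and from 20.5 to 23.0% in the 5 WT libraries.

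Slc3a2 (ENSMUSG00000010095, chromosome 19, 8684245 to 8700733), the heavy chain gene on which the 6 light chains depend, differed little. It was at 4528, 4753, 4575 and 4321 normalized counts in cKO replicates 1 to 4, and at 4296, 4325, 4457, 4107 and 4001 in WT replicates 1 to 5. cKO replicate 4 lay below WT replicates 2 and 3, and the other cKO libraries lay above every WT library. The means were 4544 ± 177.9 in cKO (n = 4) and 4237 ± 181.7 in WT (n = 5), each with its SD. With sex as a term, limma gave a log2 difference of 0.12 ± 0.0488 (SE, 95% interval 0.01 to 0.22, limma adjusted p = 0.392), whose upper end is 1.17-fold higher in cKO. The value was 0.06 in males, which the fit without cKO replicate 2 repeats, 0.17 in females, and 0.02 with the astrocyte markers as a covariate. The genes that ran most like Slc3a2 were Particl and the ribosomal protein genes Rps23 and Rpl6 (Pearson r = 0.985, 0.981 and 0.980, Spearman rho = 0.967, 0.933 and 0.967, over 9 libraries).

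The light chains for large neutral amino acids are encoded by Slc7a5 (LAT1), the carrier of leucine, phenylalanine and thyroid hormone at the blood-brain barrier, and Slc7a8 (LAT2). Slc7a5 (ENSMUSG00000040010, chromosome 8, 122607888 to 122634433) was at 6099, 5438, 5617 and 4872 normalized counts in cKO replicates 1 to 4, and at 5270, 4972, 5523, 4523 and 4748 in WT replicates 1 to 5. The groups overlapped, with cKO replicate 4 below 3 of the 5 WT libraries. In log2 terms the difference was 0.10 ± 0.0779 (SE, 95% interval -0.06 to 0.27, limma adjusted p = 0.643), and it was 0.06 in males, which the fit without cKO replicate 2 repeats. With a marker list as a covariate it was -0.07 for astrocytes, 0.03 for meninges and 0.16 for endothelium.

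Slc7a8 (ENSMUSG00000022180, chromosome 14, 54959665 to 55019403) was at 3465, 3252, 3597 and 3548 normalized counts in cKO replicates 1 to 4, and at 3842, 3681, 3659, 3575 and 3612 in WT replicates 1 to 5. The groups met at one point, where cKO replicate 3 lay just above WT replicate 4. The log2 difference was -0.14 ± 0.0380 (SE, 95% interval -0.22 to -0.06, limma adjusted p = 0.175), at -0.12 in males and -0.16 in females, and it was -0.08 without the sex term. Its difference was small and its error the smallest of the 10 members. The genes that ran most like Slc7a8 were the fatty acid synthesis gene Acaca and the cell division genes Nusap1 and Kif23 (Pearson r = 0.972, 0.955 and 0.937, Spearman rho = 0.917, 0.833 and 0.867, over 9 libraries).

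Slc7a6 and Slc7a7 encode the light chains of system y+L, which release arginine or lysine from the cell in exchange for a neutral amino acid with sodium. Slc7a6 (ENSMUSG00000031904, chromosome 8, 106895488 to 106925338) was at 943.6, 871.5, 810.8 and 778.9 normalized counts in cKO replicates 1 to 4, and at 887.5, 836.1, 834.2, 867.5 and 776.4 in WT replicates 1 to 5. The groups covered nearly the same range. The log2 difference was 0.0011 ± 0.0747 (SE, 95% interval -0.16 to 0.16, limma adjusted p = 0.996), and its sign turned under 7 of 24 alternatives.

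Slc7a7 (ENSMUSG00000000958, chromosome 14, 54606898 to 54655237), which in brain is known mainly from microglia, was the lowest of the members. It was at 57.7, 75.4, 50.3 and 65.1 normalized counts in cKO replicates 1 to 4, and at 45.9, 47.8, 64.5, 52.2 and 61.3 in WT replicates 1 to 5. The groups overlapped over most of their range, and 46 to 77 reads per library leave a counting error of 13.1% (coefficient of variation). This gave a log2 difference of 0.37 ± 0.177 (SE, 95% interval -0.01 to 0.75, limma adjusted p = 0.451) with sex as a term. It was 0.19 without the sex term and 0.10 with the astrocyte markers as a covariate. Microglia and macrophage markers, at 9735 to 10899 in cKO and 10979 to 11473 in WT, lay the other way, and their part in the level of Slc7a7 was not tested. Slc7a7 shares 233 bases with Oxa1l, which was at 1690 normalized counts on average, and with the strand setting not given, reads of the shared stretch cannot be told apart.

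**Figure D3:**
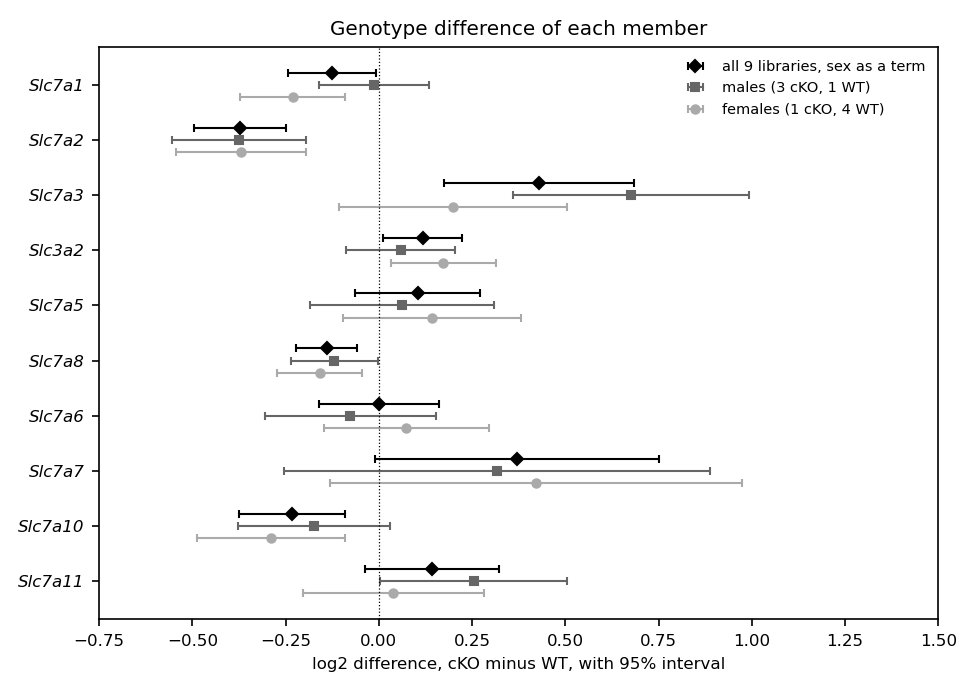
Log2 difference between cKO and WT for each member with its 95% interval, from all 9 libraries with sex as a term (diamonds), in males (squares) and in females (circles). The interval of Slc7a2 runs from -0.49 to -0.25, and that of Slc7a6 from -0.16 to 0.16.

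Slc7a10 encodes the light chain Asc-1, an exchanger of small neutral amino acids such as glycine and D-serine. Slc7a11 encodes the light chain xCT, which takes up cystine in exchange for glutamate. Stretches from 250 bases before to 50 bases after the start of the gene are printed for Slc7a10, whose groups did not overlap, for Slc7a11, which is known as a target of the stress factors ATF4 and NRF2, and for Slc3a2 (RefSeq, GRCm38.p6). They are chr7:35186135-35186434 (plus strand) for Slc7a10, chr3:50443564-50443863 (minus strand) for Slc7a11 and chr19:8713848-8714147 (minus strand) for Slc3a2. Capitals mark matches to the amino acid response element TGATGNAA or to the antioxidant response element TGACNNNGC, on either strand.
Slc7a10: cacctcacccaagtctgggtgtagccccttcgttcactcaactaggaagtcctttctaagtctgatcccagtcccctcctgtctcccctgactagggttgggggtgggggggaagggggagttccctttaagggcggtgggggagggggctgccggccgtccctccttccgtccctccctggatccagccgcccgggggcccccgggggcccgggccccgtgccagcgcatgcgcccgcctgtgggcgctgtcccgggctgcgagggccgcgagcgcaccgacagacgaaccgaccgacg
Slc7a11: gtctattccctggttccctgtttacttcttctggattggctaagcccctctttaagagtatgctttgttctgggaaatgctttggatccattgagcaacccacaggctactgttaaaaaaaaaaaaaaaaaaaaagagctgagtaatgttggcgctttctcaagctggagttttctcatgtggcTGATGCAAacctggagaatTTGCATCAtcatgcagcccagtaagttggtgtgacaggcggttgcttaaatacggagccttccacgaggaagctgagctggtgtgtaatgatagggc
Slc3a2: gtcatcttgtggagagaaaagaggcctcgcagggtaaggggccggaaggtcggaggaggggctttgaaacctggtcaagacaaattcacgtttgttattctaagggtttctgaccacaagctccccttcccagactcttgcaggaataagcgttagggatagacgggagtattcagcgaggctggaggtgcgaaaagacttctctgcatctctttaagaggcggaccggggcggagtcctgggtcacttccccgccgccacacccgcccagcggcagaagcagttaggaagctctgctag
The Slc7a11 stretch holds the amino acid response element at 2 places, from -66 to -59 on the strand of the gene and from -47 to -40 on the other strand, counted from the start of the gene. Of 32851 such stretches of 300 bases, 3.97% hold that motif at least once and 0.07% more than once. The antioxidant motif is held by 12.4%, and neither motif has a match in the Slc7a10 or Slc3a2 stretch. Of the 7 members that the table of such stretches holds, Slc7a7 also matched the amino acid response element, and Slc7a1 and Slc7a6 the antioxidant motif. In 1 stretch of Slc7a7 the element is likewise at 2 places, from -141 to -134 and from -1 to 7, on the strand of the gene. Slc7a2, Slc7a3 and Slc7a5 have no entry. A match is a description of the letters.

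Slc7a10 (ENSMUSG00000030495, chromosome 7, 34885809 to 34900539) was at 1018, 944.0, 884.3 and 985.4 normalized counts in cKO replicates 1 to 4, and at 1084, 1242, 1155, 1130 and 1094 in WT replicates 1 to 5. Every cKO library lay below every WT library. The means were 958.0 ± 57.7 in cKO (n = 4) and 1141 ± 63.4 in WT (n = 5), each with its SD. With sex as a term, the difference in log2 was -0.23 ± 0.0660 (SE, 95% interval -0.38 to -0.09), which did not pass (limma adjusted p = 0.197) but passed without the sex term (-0.25, adjusted p = 0.0377). It was -0.17 in males and -0.29 in females. Slc7a10 shares 1089 bases with Lrp3, which was at 3201 normalized counts in cKO and 3028 in WT, and reads of that stretch cannot be told apart without the strand setting.

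Slc7a11 (ENSMUSG00000027737, chromosome 3, 49846974 to 50398063) was at 2022, 1866, 2353 and 1809 normalized counts in cKO replicates 1 to 4, and at 1718, 1684, 1862, 1793 and 1940 in WT replicates 1 to 5. The groups overlapped, and cKO replicates 1 and 3 lay above every WT library. The log2 difference was 0.14 ± 0.0839 (SE, 95% interval -0.04 to 0.32, limma adjusted p = 0.543), at 0.25 in males and 0.04 in females. The fits without cKO replicate 2 (0.25) and without WT replicate 1 (0.04) repeat these values, since only males or only females then hold both genotypes. The difference passed under none of 24 alternatives. Slc7a3 and Slc7a11 were alike in that cKO replicate 3 was their highest library of all 9.

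Levels of different members were compared only per kilobase of exon, over all 9 libraries. Slc7a5 (1410 ± 133.6, SD, n = 9) and Slc3a2 (1239 ± 66.2) were the highest and overlapped each other, with Slc7a8 next (715.6 ± 32.2) and apart from both. Slc7a10 (501.9 ± 53.1) and Slc7a1 (373.4 ± 24.0) followed without overlap. Slc7a6, Slc7a3, Slc7a11 and Slc7a2 came next, in an order that differed between the groups. In WT Slc7a6 (169.9 to 194.2) lay above Slc7a3 (131.1 to 154.2) without overlap, and Slc7a3, Slc7a2 (131.1 to 150.3) and Slc7a11 (120.9 to 139.3) overlapped. In cKO Slc7a3 (156.8 to 298.6), Slc7a6 (170.4 to 206.5) and Slc7a11 (129.9 to 169.0) followed by their means, with Slc7a3 overlapping both, Slc7a11 below Slc7a6, and Slc7a2 (100.4 to 106.2) below all 3. Slc7a7 was the lowest (17.4 ± 2.92). The order depends on the length used. Per kilobase of coding sequence Slc7a1 (2307 ± 148.3, SD, n = 9) lay above Slc7a8 (2248 ± 101.3) on average and Slc7a11 (1258 ± 133.5) above Slc7a10 (666.4 ± 70.5), since the exons of Slc7a1 and Slc7a11 hold 11530 and 13922 bases, of which 1866 and 1506 are coding. By either length Slc7a5 and Slc3a2 came first and Slc7a7 last. The summed level per kilobase of exon of the 6 light chains was 2810 to 3189 in cKO and 2804 to 3103 in WT, and that of the heavy chain was 1224 to 1347 and 1134 to 1263.

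**Figure D4:**
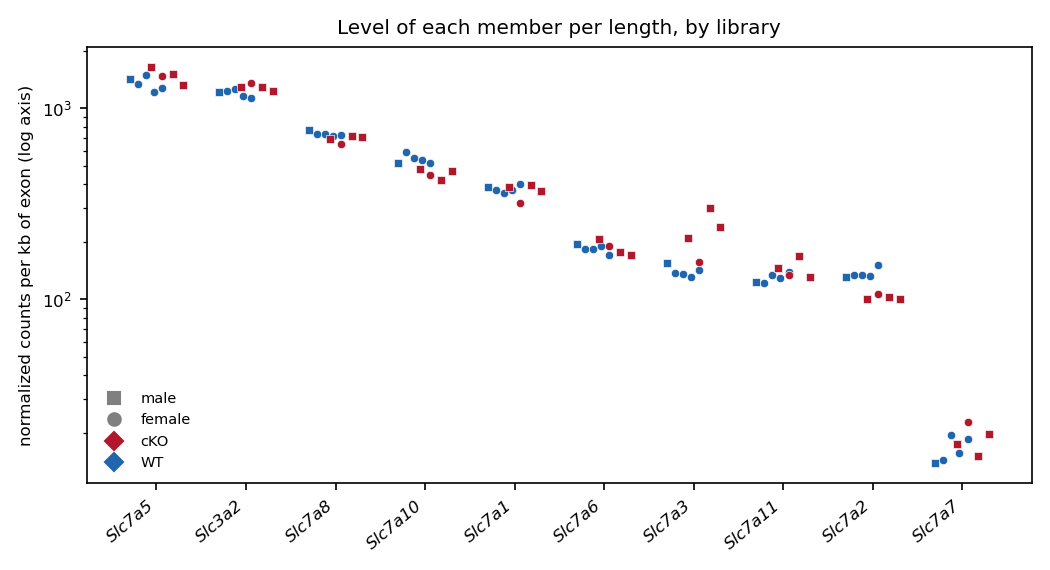
Level of each member as normalized counts per kilobase of exon on a log axis, with 1 point per library, squares for males and circles for females. Slc7a5 and Slc3a2 lie highest, at means of 1410 and 1239, and Slc7a7 lowest, at 17.4.

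Differences between the sexes and their interaction with genotype were examined in the members because the sexes are unevenly split. No member passed in the comparison of females with males, where 0.0528% of all genes tested passed by limma, and edgeR and DESeq2 on recovered reads passed none either. The unadjusted p was under 0.05 for 3 members by limma, by edgeR and by DESeq2, against 6.73% of all genes tested by limma. By limma these were Slc7a3 (log2 difference, females minus males, -0.40, limma adjusted p = 0.644), Slc7a1 (-0.14, adjusted p = 0.710) and Slc7a8 (-0.10, adjusted p = 0.710), and all 3 were lower in females. In each of these 3 genes the lowest cKO library was the female, and in Slc7a3 and Slc7a8 the highest WT library was the male.

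The interaction passed in no member by limma, edgeR or DESeq2, where 0.00587% of all genes tested passed by limma. Its unadjusted p was under 0.05 for 2 members by limma, by edgeR and by DESeq2, against 7.9% of all genes tested by limma. By limma these were Slc7a3 (-0.48 ± 0.203, SE, 95% interval -0.92 to -0.04, limma adjusted p = 0.613) and Slc7a1 (-0.22 ± 0.0940, SE, 95% interval -0.42 to -0.01, limma adjusted p = 0.613). For Slc7a2 the interaction was 0.0067 (95% interval -0.24 to 0.26). With 1 cKO female and 1 WT male, each such value rests on single animals.

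The other genes of the family were examined next. Of 7 further SLC7 and SLC3 genes, Slc7a4 and Slc7a14 reached the filter and neither passed. Slc7a4 was at 1728 in cKO and 1710 in WT on average. Slc7a14, a neuronal lysosomal member of the family, averaged 4437 ± 387.7 in cKO and 4935 ± 173.9 in WT (SD), with a log2 difference of -0.19 ± 0.0625 (SE, limma adjusted p = 0.268). Slc7a9 and Slc3a1, which encode the cystine transporter of kidney and gut, and Slc7a12, Slc7a13 and Slc7a15 did not reach the filter.

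The counts of passing genes in the lists that follow stand beside 0.123% higher and 0.223% lower over all genes tested. Of 21 tested genes of arginine, ornithine and polyamines, which use what the cationic transporters carry, 0 rose and 0 fell (limma, median log2 difference -0.01). Of 16 genes of branched-chain amino acid breakdown, downstream of LAT1, 0 rose and 0 fell (median 0.01), and of 26 genes of amino acid sensing by mTORC1, 0 rose and 0 fell (median 0.0072). Of 20 cystine and glutathione genes, downstream of xCT, 0 rose and 0 fell (median 0.03). Of 11 tested genes of D-serine and glycine, the substrates of Asc-1, Phgdh rose, none fell and 10 did not pass (median 0.15). Srr, which makes D-serine, averaged 4336 in cKO and 4540 in WT (limma adjusted p = 0.680). Over all genes tested the median was -0.0034.

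Of 23 tested ATF4 regulators and targets, Atf5 and Phgdh rose, none fell and 21 did not pass (median 0.06). Phgdh, the first enzyme of serine synthesis, was at 1593, 1939, 1539 and 1592 normalized counts in cKO replicates 1 to 4 and at 1288 to 1382 in WT (1.30-fold, limma adjusted p = 0.0353). The transcription factor gene Atf5 was at 896.7 to 1035 in cKO and 646.6 to 743.9 in WT (1.31-fold, limma adjusted p = 0.0323). Atf4 itself averaged 2618 in cKO and 2515 in WT (limma adjusted p = 0.729). Members that are known ATF4 targets, Slc7a11, Slc7a5, Slc3a2 and Slc7a1, had log2 differences of 0.14, 0.10, 0.12 and -0.13 and did not pass. Of 20 other amino acid transporters tested, Slc36a1, a lysosomal proton-coupled transporter gene, fell (1.19-fold, 2423 to 2693 in cKO and 2935 to 3115 in WT, limma adjusted p = 0.0420), none rose and 19 did not pass (median -0.01). The lists hold 3 passing genes in all, and 0 passed without cKO replicate 1, cKO replicate 2, WT replicate 2 or WT replicate 5, and 1 without WT replicate 3 or WT replicate 4.

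**Figure D5:**
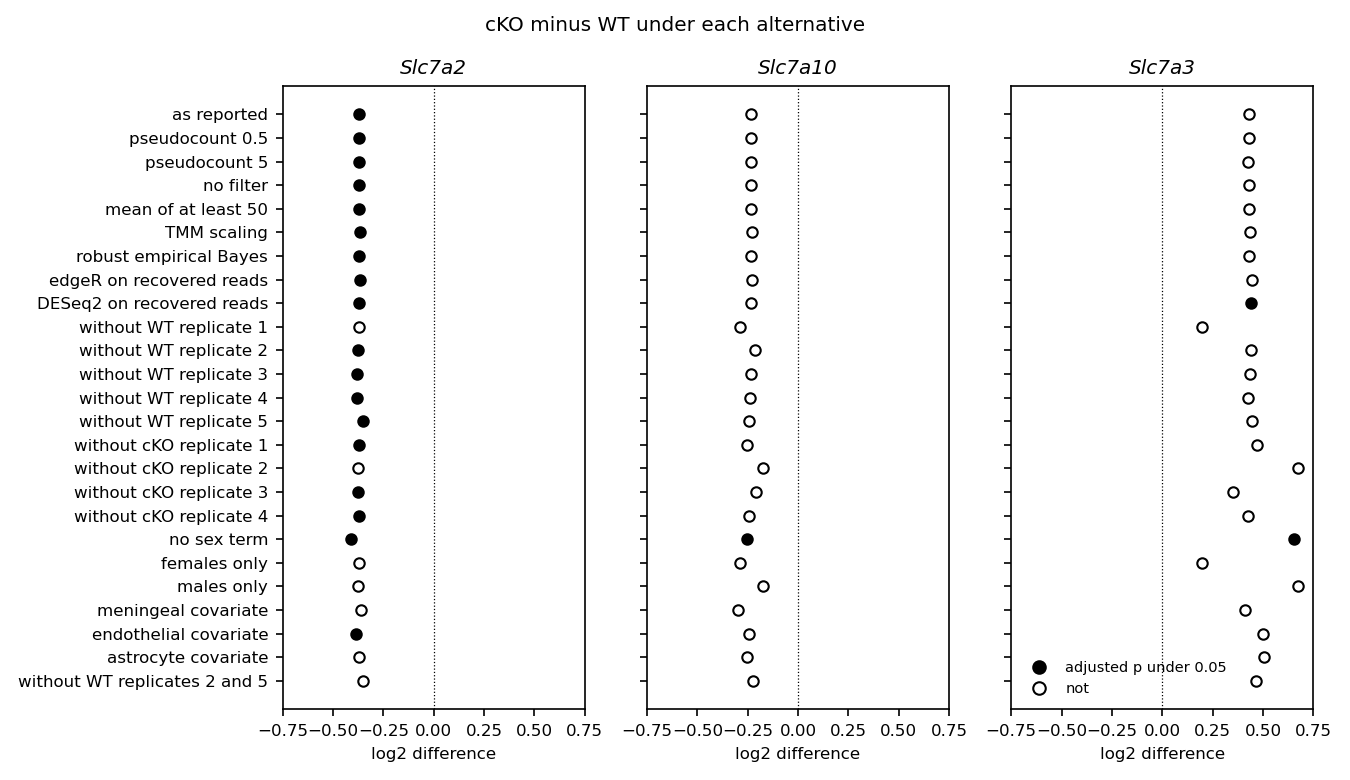
Log2 difference between cKO and WT of Slc7a2, Slc7a10 and Slc7a3 under each alternative, with 1 row per alternative and filled points where the adjusted p was under 0.05. Slc7a2 stays between -0.41 and -0.35, and Slc7a3 between 0.20 and 0.68.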

How the data were processed

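Hippocampus RNA of 4 cKO and 5 WT mice was made into directional libraries, per the labels' protocols. The submitters' processing notes name STAR 2.7.10b, cutadapt 4.4, DESeq2 1.41.8, FastQC 0.12.1 and the build GRCm39. Read counter, annotation release and strand setting: not given in the sources used here. The table the authors deposited holds a signal for each gene, and by its values this is a count divided by 1 size factor per library (0.943 to 1.08) and rounded. Undoing this gave whole reads, within 0.1 read, for 100.0% of values above 0. In 3 libraries (cKO 1, WT 1 and WT 4) the factor is too close to 1 to be seen at low values and was read from higher ones.

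Groups were compared by limma-trend (limma 3.58.1, R 4.3.3) on log2(normalized count + 1) with terms for sex and genotype, over 17036 genes with a mean of at least 10, called at Benjamini-Hochberg adjusted p under 0.05. Fold changes are on that scale and understate the change of low genes. Values within each sex come from a fit with the product of sex and genotype. Alternatives used edgeR 4.0.16 and DESeq2 1.42.0 on recovered reads, other pseudocounts, filters, scaling and covariates, 1 sex alone, and each library left out in turn. The code was tested on simulated data.

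Replicate numbers were given by accession order and do not pair animals. Libraries of a group differed beyond sampling noise (chi-square per gene 3.60 to 12.9), so none was counted with another. The labels name no litters, so p-values measure only the spread among these animals. The members and lists were chosen with earlier results of these data known. The text names every member, Slc38a3, up to 4 passing genes per pathway list, and for Slc3a2 and the 3 members of smallest p the 3 genes of highest Pearson r. Other genes (Slc7a4, Slc7a14, Srr, Atf4, Oxa1l, Lrp3, and the markers Flt1, Rgs5, Aqp4, Gfap and S100b) were named after their values were seen. In the lists, Aars1 and Lars1 were matched as Aars and Lars and Nars1 was not matched. Lengths and exons came from GENCODE M21 (GRCm38), whose coordinates were not mixed with those of the table. The transcripts of any pair of members share at most 51 identical bases in a row. Python 3.11.15, pandas 2.3.3, numpy 2.4.6, scipy 1.17.1 and matplotlib 3.10.9 were used. No column of values was left out. The result of 1 marker list is not reported here.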

Additional observations from a re-analysis of the deposited data

Results flagged for a closer look

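Slc7a2 in WT replicate 5, at 1373 normalized counts, stood above the other WT libraries, of which the next was at 1225, by a gap of 0.847 of the range of the group. It was the 1 such value among 20 groups examined (10 members in cKO and in WT), where chance gives about 1 in 20. Without that library the log2 difference of Slc7a2 was -0.35 (limma adjusted p = 0.0138).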

How the results depend on the processing

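No paired analysis was possible because the labels name no litters, and the replicate numbers, given by accession order, pair no animals. The number of members passing between cKO and WT was 1, and 0 to 1 with a library left out, the 0 coming without WT replicate 1 or cKO replicate 2. It was 2 with DESeq2 on recovered reads (1.17% of all genes tested), 3 without the sex term (1.27% of all genes tested), and 0 in females only, in males only, with the meningeal or the astrocyte markers as a covariate, and without WT replicates 2 and 5. The number of passing genes in the pathway lists was 3, and 0 to 2 with a library left out. It was 5 with DESeq2, 1 with the endothelial covariate, and 0 in males only, with the meningeal or astrocyte covariate, and without WT replicates 2 and 5. No member passed for sex or for the interaction under any alternative run. The interaction could not be fitted without cKO replicate 2 or WT replicate 1. Slc38a3 passed under all 24 alternatives. Slc7a2 kept its direction in all 24 (-0.41 to -0.35, limma, edgeR or DESeq2 adjusted p 3.96e-05 to 0.516) and passed in 17. Slc7a10 (-0.30 to -0.17) passed in 1 of 24 and Slc7a3 (0.20 to 0.68) in 2 of 24. Reversals were seen in Slc7a5, at -0.0742 with the astrocyte covariate, and in Slc7a6. Slc7a6 was at -0.0767 in males only, -0.0088 with the meningeal covariate, -0.0069 with the endothelial covariate and -0.0242 without WT replicates 2 and 5. With a library left out it ran from -0.0767 (without cKO replicate 2) to 0.0741 (without WT replicate 1), at -0.0320 without cKO replicate 1 and -0.0168 without WT replicate 5. The cause of these changes was not tested. Without the only cKO female the genotype term rests on 1 WT male, and without the only WT male on 1 cKO female. Those fits repeat the estimates of males only and of females only. The -0.0767 of Slc7a6 is thus counted in males only and again without cKO replicate 2. Other pseudocounts, filters and scaling refit the same libraries, so the 24 alternatives are not independent checks. Over all genes tested 59 passed, and 10 to 65 with a library left out, 216 without the sex term, 200 with DESeq2, 11 in females only, 3 in males only, 15 with the meningeal, 28 with the endothelial and 1 with the astrocyte covariate, and 15 without WT replicates 2 and 5. Counting error matters most for Slc7a7, at 46 to 77 reads per library.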
